A study of Mus musculus with 6 samples.

Results

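A set of 9 genes of the B lymphocyte were followed in purified CD4+ T cells: Ms4a1, Fcer2a, Cd79a, Cd79b, Cd22, Cr2, Pax5, Ebf1 and Blk. They are 9 of the 22180 genes that had a probe set (a group of array probes read as 1 value) assigned to 1 gene symbol alone. Each of the 9 had 1 such probe set, so the rule of taking the brightest over the 6 arrays left no choice. The genes were picked by name, with earlier results of these arrays known, in particular that Ms4a1 and Fcer2a were lower with PlGF. Their values in that comparison therefore describe that choice and are no independent evidence for it.

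The cells came from mouse spleen, were isolated with magnetic beads and kept for 12 hours in RPMI medium with serum, under antibodies to CD3 and CD28 at 1 µg/ml. ConCM cells received a control conditioned medium, whose producing cells the labels do not name. PlGFCM cells received medium from clones of HEK-293, an established human kidney line, that overexpress PlGF2, a form of placental growth factor, and IL6_ConCM cells received ConCM with IL-6 at 20 ng/ml. Each group held 2 arrays, 6 in all, of an Affymetrix whole-transcript design. Conditioned medium also holds what else the producing cells secrete, and the labels give neither strain, sex and age of the mice nor whether replicates came from separate animals. What a p-value measures here is thus the spread among these 6 samples alone, and part of that spread may be technical.

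B cells are recognised by a receptor made of immunoglobulin and the signalling chains encoded by Cd79a and Cd79b. The transcription factors Ebf1 and Pax5 establish and keep B cell identity, and Blk is a kinase of the Src family that acts below the receptor. Cd22 dampens the signal of the receptor and Cr2, the complement receptor CD21, strengthens it. Ms4a1 encodes CD20, a membrane protein of mature B cells, and Fcer2a encodes CD23, the low-affinity receptor for IgE, which IL-4 raises through STAT6. In spleen, Cr2 and Fcer2a are also made by follicular dendritic cells. Magnetic isolation of CD4+ cells can leave some B cells behind. In such bulk RNA, fewer cells of a type and less RNA per cell cannot be told apart.

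The labelled cell type was checked against its markers. Among 15 T cell markers listed, 11 were measured, with log2 levels from 8.99 to 12.2 over all arrays, Cd3e and Cd4 included. The 9 B cell genes lay between 4.62 and 7.61, but Ighm, the heavy chain of IgM, was at 11.2 to 11.3 and the MHC class II gene H2-Ab1 at 9.77 to 10.2. Probe sets differ in brightness, so these levels neither rank amounts nor give the share of B cells. PlGFCM replicate 2 stood apart. Xist, the transcript of the inactive X chromosome, reached 8.38 (log2) there, against 3.58 to 3.95 on the other 5 arrays, and the Y-linked Uty was lowest there, at 7.50 against 7.77 to 8.14. The Y-linked Kdm5d and Eif2s3y were also lowest on it, at 7.07 and 8.59. For PlGFCM against ConCM, results on the 9 genes, and the counts and medians of the gene lists, are therefore given with and without that array. For PlGFCM against IL6_ConCM this is done for only part of the results. The median level was 5.47 to 5.51 on the 6 arrays, and the number of arrays limits the precision.

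RefSeq upstream sequences (GRCm38.p6) were found for 6 of the 9 genes, in 9 windows, since some genes have several starts. Ms4a1, Cd79b and Blk had no entry. The 250 bases before 2 Fcer2a starts are shown because Fcer2a was 1 of the 2 genes that fell. Those of Cd79a and Cd22 are shown beside them, as windows of other B cell genes. Each window shown holds a match. A further Fcer2a start, inward of the one called inner here (chr8:3690391-3690640), held no match and is not shown. The windows of Cr2 and Pax5, also without a match, and those of Ebf1 are not shown either. All run 5′ to 3′ on the strand of the gene, and capitals mark matches to the motifs searched.
Fcer2a, outermost start (chr8:3694175-3694424, minus strand): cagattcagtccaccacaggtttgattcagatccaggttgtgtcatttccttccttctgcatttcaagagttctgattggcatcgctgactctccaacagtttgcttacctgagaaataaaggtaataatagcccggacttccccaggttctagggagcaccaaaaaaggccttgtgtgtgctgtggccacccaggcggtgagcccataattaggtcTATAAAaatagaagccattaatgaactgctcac
Fcer2a, inner start (chr8:3690862-3691111, minus strand): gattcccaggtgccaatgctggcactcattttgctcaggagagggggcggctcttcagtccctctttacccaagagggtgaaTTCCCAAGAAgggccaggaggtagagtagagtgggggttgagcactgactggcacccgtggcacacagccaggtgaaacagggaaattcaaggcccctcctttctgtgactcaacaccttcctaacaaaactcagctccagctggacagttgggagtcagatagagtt
Cd79a (chr7:24897247-24897496, plus strand): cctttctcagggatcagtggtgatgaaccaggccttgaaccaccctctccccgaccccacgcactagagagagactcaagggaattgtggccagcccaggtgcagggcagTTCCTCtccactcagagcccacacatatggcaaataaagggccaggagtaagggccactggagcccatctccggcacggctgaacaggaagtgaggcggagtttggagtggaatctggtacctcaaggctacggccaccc
Cd22 (chr7:30879029-30879278, minus strand): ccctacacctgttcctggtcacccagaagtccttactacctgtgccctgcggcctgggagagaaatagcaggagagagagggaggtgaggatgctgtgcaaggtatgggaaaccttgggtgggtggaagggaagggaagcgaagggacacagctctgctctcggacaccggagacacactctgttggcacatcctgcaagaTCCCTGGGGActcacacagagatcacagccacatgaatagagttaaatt

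The motifs were searched on both strands of every window. TATAAA, the TATA box, was found 33 bases before the outermost Fcer2a start, and 12.4% of all 32851 mouse windows of the same length hold it. TTCNNNNGAA, the spacing that STAT6 prefers, was found before the inner Fcer2a start and in 5.85% of all windows. TCCCNNGGGA, the palindrome of EBF1, stood before Cd22 (0.779% of all windows). GAGGAA, the core of PU.1 sites, stood before Cd79a and 1 start of Ebf1 (23.3%). The octamer ATGCAAAT (1.6%) and TTCNNNGAA, the spacing of other STAT factors (7.02%), were in none of the 9 windows. The inner Fcer2a match TTCCCAAGAA is the only one of the STAT6 form in the windows of these genes. The letters are a description of these windows and the arrays do not read binding.

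The first question was what medium rich in PlGF2 does to these genes, as read from PlGFCM against ConCM. Ms4a1 and Fcer2a fell, while 6 of the other 7 had a positive log2 change and none of the 7 passed the test. The test was limma on all 6 arrays with a Benjamini-Hochberg adjusted p under 0.05 over the 22180 genes. Over all genes 0.433% passed, 0.0812% in the downward and 0.352% in the upward direction. An unadjusted p under 0.05 was reached by 4 of the 9, Cd79b and Pax5 being the others, and by 8.74% of all genes. As the fall of the pair was known when the list was drawn up, the count of 2 in 9 is not read against these shares.

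Ms4a1 had log2 levels of 6.41 and 6.39 with ConCM, 5.47 and 5.64 with PlGFCM, and 6.12 and 6.07 with IL6_ConCM. Both PlGFCM arrays were the lowest of the 6 and both ConCM arrays the highest, with no overlap between any groups. PlGFCM arrays lay wholly below ConCM arrays in 20.9% of all genes. The share of all genes with no overlap between any groups was not counted. The ConCM mean of 6.40 ± 0.012 (SD, n = 2) stood against a PlGFCM mean of 5.56 ± 0.12. That is a log2 change of -0.84 ± 0.12 (SE), or 1.79-fold lower, with a limma adjusted p of 0.0125. Without PlGFCM replicate 2 the change was -0.93 and the limma adjusted p 0.0841, so the call was lost while the change was larger. It was also lost without PlGFCM replicate 1 (-0.76, limma adjusted p = 0.118), without ConCM replicate 1 (-0.84, limma adjusted p = 0.0698) and without ConCM replicate 2 (-0.85, limma adjusted p = 0.103).

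Fcer2a had log2 levels of 7.29 and 7.61 with ConCM, 6.45 and 6.72 with PlGFCM, and 6.90 and 7.02 with IL6_ConCM. The order of the groups was that of Ms4a1, again with no overlap (20.9% of all genes for PlGFCM below ConCM). The mean fell from 7.45 ± 0.23 (SD, n = 2) to 6.58 ± 0.19, a log2 change of -0.86 ± 0.13 (SE) or 1.82-fold lower, with a limma adjusted p of 0.0206. Without PlGFCM replicate 2 the change was -0.999 and the limma adjusted p 0.0992. The call held without ConCM replicate 1 (-1.02, limma adjusted p = 0.0211) and was lost without ConCM replicate 2 (-0.70, limma adjusted p = 0.180) or PlGFCM replicate 1 (-0.73, limma adjusted p = 0.186).

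**Figure D1:**
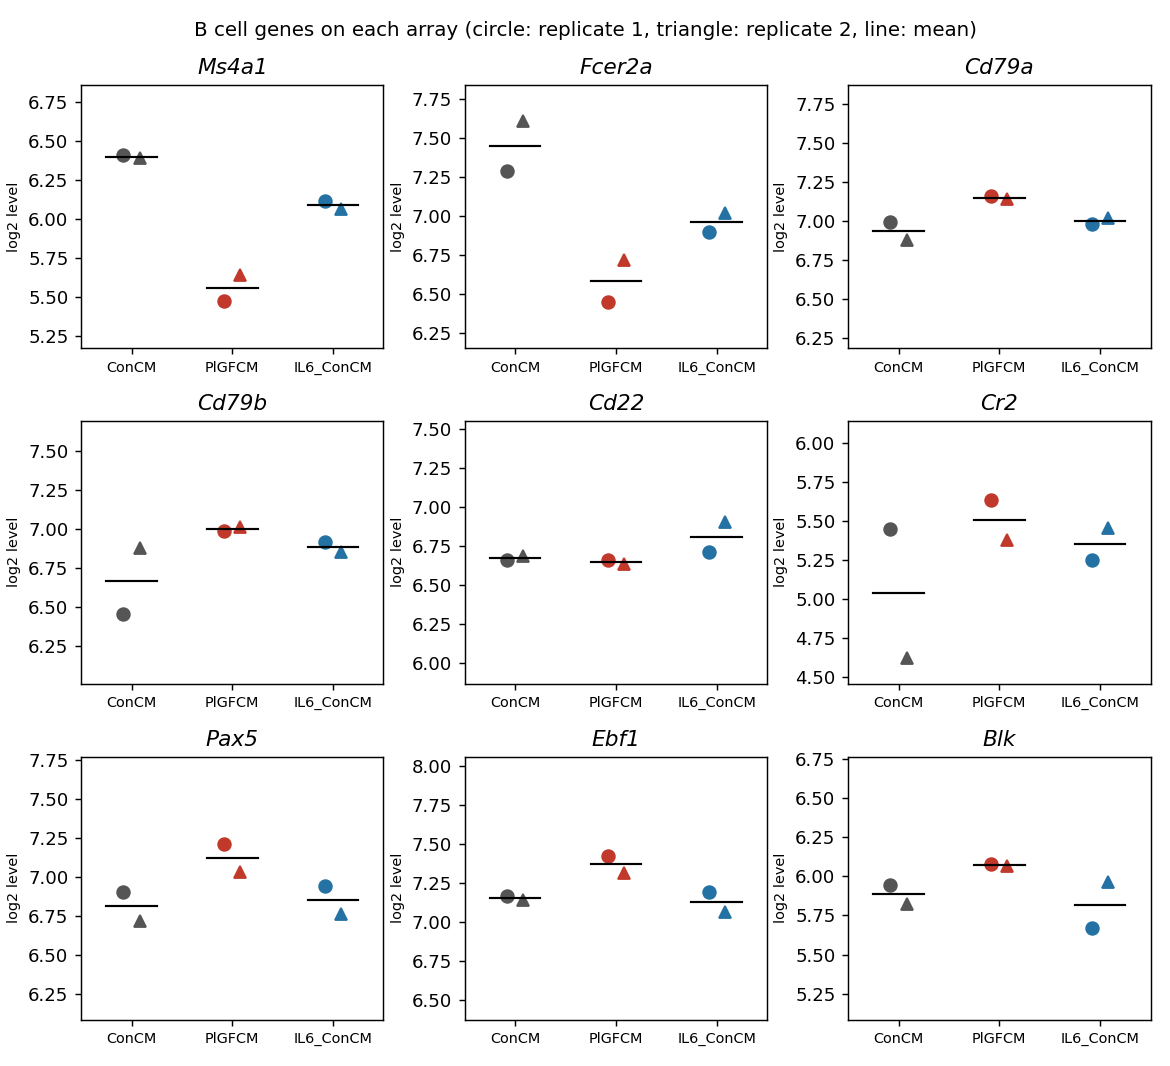
Log2 level of each B cell gene on the 6 arrays by group, replicate 1 as a circle, replicate 2 as a triangle and the group mean as a line; every panel spans the same number of log2 units. Ms4a1 and Fcer2a are lowest on both PlGFCM arrays, where Cd79a, Cd79b, Pax5, Ebf1 and Blk are highest.

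The receptor chains lay the other way. Cd79a had log2 levels of 6.99 and 6.88 with ConCM, 7.16 and 7.14 with PlGFCM, and 6.98 and 7.02 with IL6_ConCM. The PlGFCM arrays were the highest of the 6, at a log2 change of 0.22 ± 0.10 (SE) from ConCM with a limma adjusted p of 0.577, which did not pass. Cd79b had log2 levels of 6.46 and 6.88 with ConCM, 6.99 and 7.02 with PlGFCM, and 6.92 and 6.85 with IL6_ConCM. Its change was 0.33 ± 0.13 (limma adjusted p = 0.492). The low ConCM replicate 1 carried much of that difference, since the change was 0.12 without it.

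The lineage factors followed the receptor chains. Pax5 had log2 levels of 6.90 and 6.72 with ConCM, 7.21 and 7.03 with PlGFCM, and 6.94 and 6.77 with IL6_ConCM. Ebf1 was at 7.17 and 7.14 with ConCM, 7.42 and 7.31 with PlGFCM, and 7.19 and 7.06 with IL6_ConCM. For both genes the PlGFCM arrays were above all others, with log2 changes from ConCM of 0.31 ± 0.12 (SE) for Pax5 and 0.21 ± 0.10 for Ebf1. Neither passed (limma adjusted p = 0.455 and 0.586). Blk was at 5.95 and 5.83 with ConCM, 6.08 and 6.07 with PlGFCM, and 5.67 and 5.96 with IL6_ConCM, a change of 0.19 ± 0.13 against ConCM (limma adjusted p = 0.749). The kinase was thus highest on the PlGFCM arrays too, by little more than its error.

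The co-receptors did not share one pattern. Cd22 hardly moved, with log2 levels of 6.66 and 6.68 with ConCM, 6.66 and 6.64 with PlGFCM, and 6.71 and 6.90 with IL6_ConCM. Its log2 change from ConCM to PlGFCM was -0.02, with a 95% interval from -0.26 to 0.21 by limma. Cr2 was the most uneven of the 9, at 5.45 and 4.62 with ConCM, 5.63 and 5.38 with PlGFCM, and 5.24 and 5.45 with IL6_ConCM. The ConCM replicates lay 0.82 log2 units apart, and the change of 0.47 ± 0.22 (SE, limma adjusted p = 0.595) was 0.06 without ConCM replicate 2. Cr2 was also the 1 member whose mean lay under the median gene level of 5.63, so 8 of 9 passed a filter at that level. Ms4a1 passed it through the groups where it was higher, since its PlGFCM mean of 5.56 lay under that level.

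**Figure D2:**
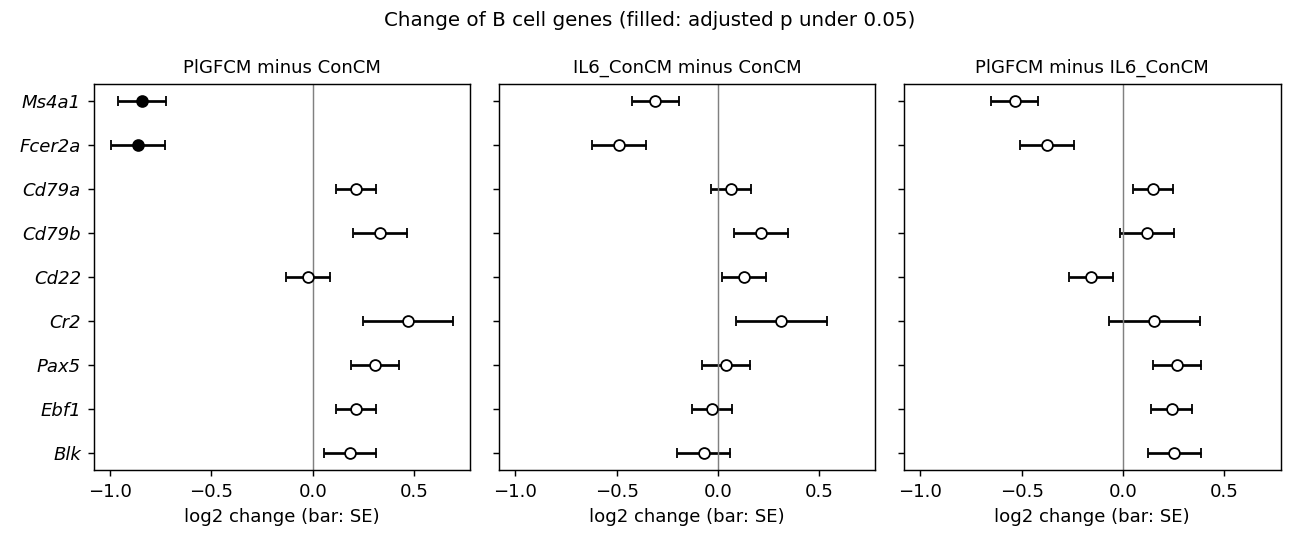
Log2 change of the 9 genes in the 3 comparisons, points with bars of 1 SE and filled points for a limma adjusted p under 0.05. Ms4a1 and Fcer2a lie left of 0 in every panel and are filled against ConCM in PlGFCM alone, at -0.84 and -0.86.

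Of the 95% intervals of the 7, all included 0 but those of Cd79b and Pax5. They ran from 0.04 to 0.63 for Cd79b and from 0.05 to 0.57 for Pax5, above 0 before any adjustment for 22180 genes. For Cd79a the interval was -0.0034 to 0.43, for Ebf1 -0.0065 to 0.43, for Blk -0.10 to 0.47 and for Cr2 -0.02 to 0.96. None of the 7 intervals reached the changes of Ms4a1 and Fcer2a, whose own intervals were -1.10 to -0.59 and -1.16 to -0.57. PlGFCM and ConCM arrays did not overlap in 5 of the 7 with PlGFCM higher (17.3% of all genes) and in 1, Cd22, with PlGFCM lower (20.9% of all genes). Without PlGFCM replicate 2 all 7 kept their sign, at 0.22 for Cd79a, 0.32 for Cd79b, -0.01 for Cd22, 0.60 for Cr2, 0.40 for Pax5, 0.27 for Ebf1 and 0.19 for Blk. The median log2 change was 0.22 over the 7 and -0.01 over all genes. A positive change was seen in 6 of the 7 and in 46.4% of all genes.

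To set the pair against the others within each array, the mean log2 level of the 7 was subtracted from that of Ms4a1 and Fcer2a. Only differences of this score between arrays can be read, since its height depends on probe brightness. It was 0.34 and 0.61 with ConCM, -0.77 and -0.48 with PlGFCM, and -0.01 and -0.03 with IL6_ConCM. The PlGFCM arrays lay below both other groups and the ConCM arrays above them. From ConCM to PlGFCM the pair changed by -0.85 and the 7 by 0.24, so the score moved by -1.10 with a pooled SD between replicates of 0.16. Without PlGFCM replicate 2 it moved by -1.25. With 2 arrays a side, the smallest two-sided p of an exact permutation is 0.333, so no p is given. With respect to the other B cell genes, Ms4a1 and Fcer2a moved against Cd79a, Cd79b, Pax5, Ebf1, Blk and Cr2 in PlGFCM as far as direction goes, and those 6 did not pass singly.

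**Figure D3:**
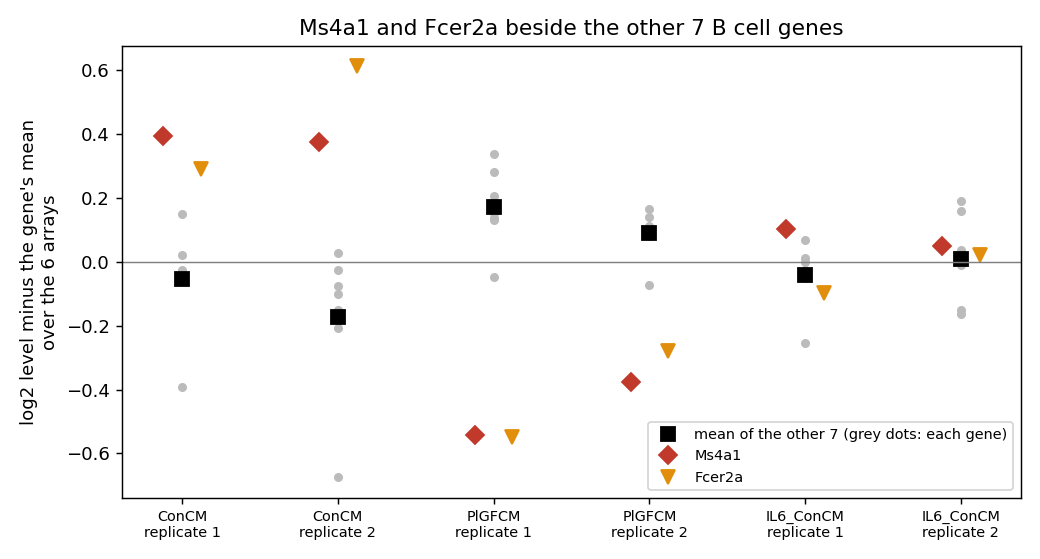
Log2 level of each gene minus its own mean over the 6 arrays, for Ms4a1 (diamond), Fcer2a (triangle), the other 7 genes (grey) and the mean of those 7 (square). On the PlGFCM arrays Ms4a1 is at -0.54 and -0.38 while the mean of the 7 is at 0.17 and 0.09, and on the ConCM arrays the order is turned.

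Counts per array restate the same deviations and are no further evidence. The share of all genes above their own mean on each array was not counted. On PlGFCM replicate 1 and replicate 2, 6 of the 7 genes lay above their own mean over the 6 arrays, Cd22 being the exception, and neither Ms4a1 nor Fcer2a did. On ConCM replicate 1 and replicate 2, 2 and 1 of the 7 lay above it, and both Ms4a1 and Fcer2a did. IL6_ConCM replicates had 3 of 7 each, and Ms4a1 was above its mean on both by 0.10 and 0.05.

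Differences between the replicates of 1 group, which no treatment enters, were smaller than the change from ConCM to PlGFCM for Ms4a1, Fcer2a, Cd79a, Pax5 and Ebf1. The widest gap within a group was 0.17 log2 units for Ms4a1, 0.32 for Fcer2a and 0.18 for Pax5, against 0.42 for Cd79b and 0.82 for Cr2, both in ConCM. In each of the 3 groups replicate 2 had the higher Fcer2a, by 0.32, 0.27 and 0.12, and the lower Pax5 and Ebf1. Ms4a1 did not share the sign of Fcer2a in ConCM or IL6_ConCM. The share of all genes with 1 sign between replicates in all 3 groups was not counted, so nothing is concluded from these signs.

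IL6_ConCM set against ConCM shows the effect of adding IL-6 to the same medium. None of the 9 genes passed limma's test (0.113% of all genes did). An unadjusted p under 0.05 was reached by 2 of 9, Ms4a1 and Fcer2a, and by 5.62% of all genes. Ms4a1 changed by -0.31 ± 0.12 (SE, limma adjusted p = 0.758) and Fcer2a by -0.49 ± 0.13 (limma adjusted p = 0.408). In both, the arrays of the groups did not overlap, as in 18.4% of all genes with the treated arrays lower. The other 7 ranged from -0.07 for Blk to 0.31 for Cr2, with a median of 0.07, and 5 of the 7 were positive, as were 46.9% of all genes. Among these 7, only Cd22 had groups that did not overlap (15.7% of all genes in that direction), at 0.13 ± 0.11 (limma adjusted p = 0.997). The score of the pair against the 7 moved by -0.50, of which -0.40 was the pair and 0.10 the others. Both comparisons use the same ConCM arrays, so a high ConCM value lowers both.

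The comparison of PlGFCM with IL6_ConCM uses no ConCM array. It does use the PlGFCM arrays on which Ms4a1 and Fcer2a were known to be low when the list was drawn up. Its values for the pair, and the counts and score that include them, are thus no independent evidence either. None of the 9 passed limma's test (0.0316% of all genes did, every one of them higher in PlGFCM), and 4 of 9 had an unadjusted p under 0.05 against 4.37% of all genes. The 4 were Ms4a1 at -0.53 ± 0.12 (SE, limma adjusted p = 0.301), Fcer2a at -0.38 ± 0.13, Pax5 at 0.27 ± 0.12 and Ebf1 at 0.24 ± 0.10, the last 3 with a limma adjusted p of 0.998. Blk was at 0.25, Cr2 at 0.16, Cd79a at 0.15, Cd79b at 0.12 and Cd22 at -0.16, so that 6 of the 7 were positive, as were 49.1% of all genes. PlGFCM arrays lay wholly above IL6_ConCM arrays in 5 of the 7 (15.2% of all genes) and wholly below them for Ms4a1, Fcer2a and Cd22 (14.9% of all genes). The score of the pair against the 7 differed by -0.60, or by -0.75 without PlGFCM replicate 2. In level, both genes ran ConCM, IL6_ConCM, PlGFCM from high to low, and of the neighbours in that order none differed after adjustment.

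A set of 7 lists of further B cell genes were counted in the same fit, none of them by a test of the list. Of 13 measured B cell surface receptors 0 passed in any comparison. The change from ConCM was positive for 12 of 13 in PlGFCM, with a median of 0.11, and for 4 of 13 in IL6_ConCM, with a median of -0.07. Over all genes 46.4% were positive in PlGFCM and 46.9% in IL6_ConCM. Without PlGFCM replicate 1 the count in PlGFCM was 9 of 13. Cxcr5, the receptor that leads cells into follicles and is also made by follicular helper T cells, was at 0.36 in PlGFCM (limma adjusted p = 0.179). Tnfrsf13b, a receptor for the survival factors BAFF and APRIL, was at 0.54 (limma adjusted p = 0.328), or 0.29 without PlGFCM replicate 1 and 0.35 without ConCM replicate 1, and the inhibitory Fc receptor Fcgr2b at 0.35 (limma adjusted p = 0.373). Of 9 genes of B cell receptor signalling, 0 passed in any comparison and 7 had a positive change in PlGFCM, with a median of 0.16. Pik3ap1, an adaptor for PI3 kinase, was at 0.40 and Prkcb, a protein kinase C, at 0.20. The scaffold gene Bank1 was lower in PlGFCM at -0.29 and higher in IL6_ConCM at 0.28 (limma adjusted p = 0.510 and 0.852). Its levels were 6.22 and 6.02 with PlGFCM, 6.43 and 6.40 with ConCM, and 6.80 and 6.59 with IL6_ConCM, so the 3 groups did not overlap. PlGFCM lay wholly below ConCM in 20.9% of all genes and IL6_ConCM wholly above ConCM in 15.7%.

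Of 8 B cell transcription factors beside Pax5 and Ebf1, 0 passed, and the median change in PlGFCM was -0.0014. Bach2, which keeps lymphocytes from terminal differentiation, was at 0.16, the coactivator Pou2af1 at -0.20 and its partner Pou2f2 at 0.21, or 0.063 without PlGFCM replicate 1 and 0.10 without ConCM replicate 1. Bach2 was at 0.072 without ConCM replicate 2 and Pou2af1 at -0.084 without ConCM replicate 1. Irf8, a factor of B cells and dendritic cells named here after its values were seen, had the smallest p of the list, in IL6_ConCM. Its levels were 10.3 and 10.3 with ConCM, 10.2 and 10.2 with PlGFCM, and 9.92 and 9.62 with IL6_ConCM. The change with IL-6 was -0.54 (limma adjusted p = 0.0561), which passed under 4 of 18 alternatives, with limma adjusted p of 0.0303 under a filter at the median level and 0.0155 without IL6_ConCM replicate 1. The 8 measured genes of MHC class II were at a median of 0.08 in PlGFCM and of -0.14 in IL6_ConCM, and 0 passed. All 8 had a negative change with IL-6 and all 8 were higher in PlGFCM than in IL6_ConCM, by 0.17 to 0.25. H2-Aa, H2-DMb2 and H2-Ob had IL6_ConCM means of 8.70, 7.21 and 6.65, above their ConCM replicate 1 levels of 8.56, 7.15 and 6.52. Against that array alone their change with IL-6 was positive, so the 8 of 8 with IL-6 rested on ConCM replicate 2. Without PlGFCM replicate 2 all 8 were still higher in PlGFCM than in IL6_ConCM. Over all genes 46.9% had a positive change with IL-6, and 49.1% were higher in PlGFCM than in IL6_ConCM. H2-Ab1, H2-DMa and H2-Aa, with changes of 0.14, 0.10 and 0.13 in PlGFCM, had the smallest p of that list. Without PlGFCM replicate 1 the changes of H2-Ab1 and H2-Aa were 0.031 and 0.018, and without ConCM replicate 1 that of H2-Aa was -0.074, so single arrays set these values.

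Of 8 immunoglobulin and plasma cell genes, 1 rose in PlGFCM. Jchain, which joins IgM and IgA subunits, had log2 levels of 5.35 and 5.40 with ConCM, 6.24 and 6.22 with PlGFCM, and 6.18 and 5.85 with IL6_ConCM. Its ConCM and PlGFCM replicates lay close together, while those of IL6_ConCM were further apart, and the change in PlGFCM was 0.86 ± 0.13 (SE), with a limma adjusted p of 0.0208. The call was lost when any 1 of the 4 ConCM and PlGFCM arrays was left out (limma adjusted p from 0.116 to 0.171), with changes of 0.84 to 0.88. In IL6_ConCM the change of 0.64 did not pass (limma adjusted p = 0.146). Prdm1, a factor of plasma cells and of effector T cells, was at 0.38 in PlGFCM (limma adjusted p = 0.113) and Mzb1 at 0.29 (limma adjusted p = 0.424). Ighm had a change of 0.03 in both treated groups.

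Ms4a1 belongs to the MS4A family, which lies as a cluster on mouse chromosome 19. Of the 15 other family members listed, 1 fell in PlGFCM and 14 did not pass, with a median change of -0.02. Ms4a4b, a member that T cells express, had log2 levels of 8.87 and 9.01 with ConCM, 8.41 and 7.99 with PlGFCM, and 8.45 and 8.37 with IL6_ConCM. Its change in PlGFCM was -0.74 ± 0.12 (SE, limma adjusted p = 0.0285), and it did not pass without PlGFCM replicate 2 (-0.53, limma adjusted p = 0.181), ConCM replicate 1 (limma adjusted p = 0.0821) or ConCM replicate 2 (limma adjusted p = 0.212). Ms4a4c, its neighbour, was at -0.71 in PlGFCM and -0.75 in IL6_ConCM (limma adjusted p = 0.0678 and 0.0918). In RefSeq's order of the protein-coding genes, Ms4a4c stands 5 and Ms4a4b 6 places from Ms4a1. Genes nearer to it did not pass: Ms4a5, next to it, was at 0.02, Ms4a13 at -0.0039 and Ms4a7 at 0.24. Their mean levels were 3.86, 4.46 and 4.28, under the 25th percentile gene level of 4.52. At such low levels a fall may not show, so these values do not settle whether the neighbours changed. Ms4a10, at 1 end of the cluster, was at -0.21. Probe sets of this family can bind related transcripts, so the assignment among Ms4a4b and Ms4a4c is uncertain.

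Genes around CD23 did not pass beside Fcer2a. Of 10 genes of the IgE, IL-4 and CD23 list, 0 passed in any comparison and the median change in PlGFCM was 0.10. Il4ra, the IL-4 receptor chain, was at 0.26 in PlGFCM (limma adjusted p = 0.145) and 0.37 in IL6_ConCM (limma adjusted p = 0.0550). The latter passed under 6 of 18 alternatives, with a limma adjusted p of 0.0247 under a filter at the median level and 0.0409 after quantile normalization. Fcer1g, the common Fc receptor chain, was at 0.24 and Il13 at 0.18 in PlGFCM. Il4 was at -0.05, Stat6 at 0.08 and Adam10, the protease that sheds CD23, at 0.12. Il4 changed sign with single ConCM arrays, at -0.22 without replicate 1 and 0.12 without replicate 2.

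Without PlGFCM replicate 2 no gene of these 7 lists passed between PlGFCM and ConCM, Jchain and Ms4a4b included. The median change of the surface receptors was then 0.21 with 10 of 13 positive, and that of receptor signalling 0.19 with 7 of 9. It was -0.0085 for the transcription factors with 4 of 8 positive, 0.13 for the immunoglobulin and plasma cell genes with 7 of 8, and 0.070 for MHC class II with 8 of 8. For the MS4A family it was -0.045 with 5 of 15 positive, and for the IgE, IL-4 and CD23 list 0.14 with 8 of 10. Without PlGFCM replicate 1 the medians of MHC class II and of the CD23 list came to 0.025 and 0.014, with 5 of 8 and 6 of 10 positive.

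**Figure D4:**
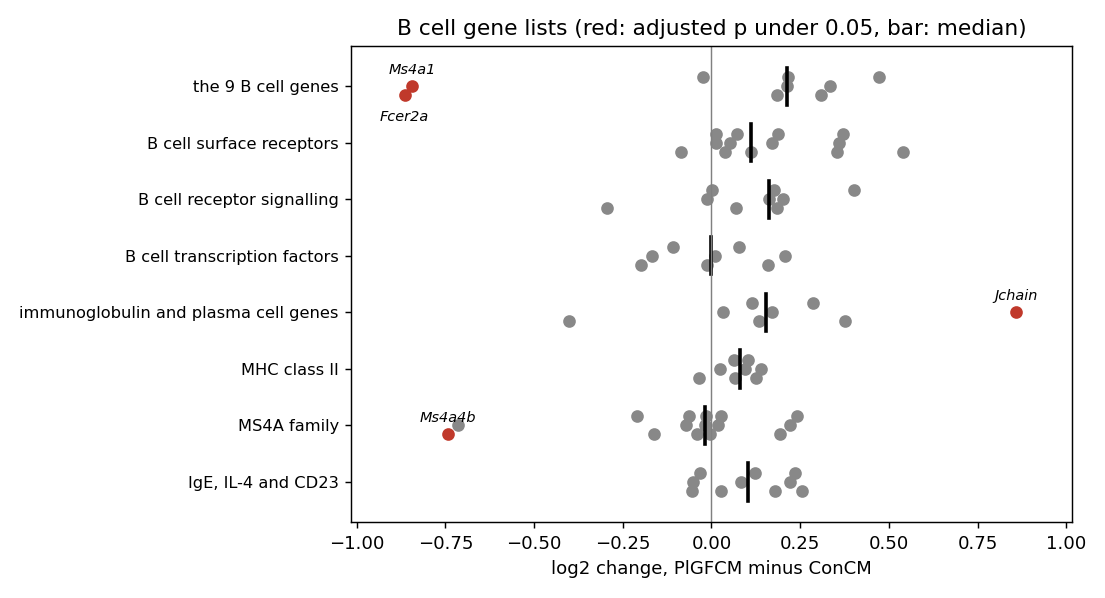
Log2 change from ConCM to PlGFCM of the 9 genes and of 7 lists of related genes, 1 point per gene, red for a limma adjusted p under 0.05 and a black bar for the median of the row. Ms4a1, Fcer2a and Ms4a4b lie near -0.8, Jchain at 0.86, and most other points between -0.4 and 0.5.

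Markers of other cells were read beside these results. Of 7 follicular dendritic and stromal cell markers 0 passed, and their mean log2 level was 6.03 to 6.12 in ConCM and 5.95 to 6.14 in PlGFCM, with Cxcl13, which draws B cells into follicles, at -0.12 in PlGFCM. Cr2 and Fcer2a, which such cells also make, were at 0.47 and -0.86 in PlGFCM. The Cr2 change did not pass (limma adjusted p = 0.595) and was 0.06 without ConCM replicate 2, so its sign is uncertain. Of 12 myeloid markers Clec7a fell by 0.60 (limma adjusted p = 0.0383) and Cd14 was at 0.67 (limma adjusted p = 0.0806) and Lyz2 at 0.31, which was 0.53 without PlGFCM replicate 2 and 0.10 without replicate 1, with a mean level of 5.74 to 5.76 in ConCM and 5.80 to 5.82 in PlGFCM. Of 10 CD8 T and NK cell markers Gzma rose by 0.93 in PlGFCM and by 1.12 in IL6_ConCM (limma adjusted p = 0.0123 and 0.00692), and Cd8a was at -0.07 in PlGFCM, with 0.13 without PlGFCM replicate 1 and -0.26 without replicate 2. Leaving out either PlGFCM array or ConCM replicate 2 ended the calls of Gzma and Clec7a in PlGFCM, and leaving out ConCM replicate 2 ended that of Gzma in IL6_ConCM. Clec7a also did not pass once array medians were subtracted (limma adjusted p = 0.0504). None of 9 dendritic cell markers, 6 erythroid cell and platelet markers or 11 T cell markers passed, with medians of -0.08, -0.01 and 0.09 in PlGFCM. With PlGFCM replicate 2 left out, no marker of these 6 lists passed between PlGFCM and ConCM, and the medians were -0.087 for the follicular dendritic and stromal cells, -0.027 for myeloid cells, -0.085 for CD8 T and NK cells, -0.046 for dendritic cells, -0.061 for erythroid cells and platelets and 0.081 for T cells. Cd3e was at 0.05, Cd4 at -0.08 and the dendritic cell integrin Itgax at -0.08. The small changes of Cd3e, Cd4, Cxcl13, Ms4a5 and Ms4a13 each changed sign when 1 array was left out. The part of these cells, and of the array that differs in Xist, in the fall of Ms4a1 and Fcer2a was not tested beyond the values given.

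By likeness over the 6 arrays, the genes most like Ms4a1 were sought among 1168 others at or above the median level with a range of at least 0.5 log2 units. Pearson's r serves here as a ranking of profiles that share all arrays, without a p. The closest were Insig1, a regulator of cholesterol synthesis (r = 0.956), Speer4a (0.955), Hsd17b7, an enzyme of that synthesis (0.946), Defb25 (0.942) and Akr1c18 (0.940), and Fcer2a ranked 7. For Fcer2a they were Kcns2 (0.982), Ube2l6 (0.982), Tsfm (0.957), Phf11a (0.947) and Insig1 (0.932), and Ms4a1 ranked 6. Of these, Akr1c18, a hydroxysteroid dehydrogenase, fell by 1.25 in PlGFCM (limma adjusted p = 0.00510) and Insig1 fell by 0.42 (limma adjusted p = 0.0267). Both were picked for likeness to genes that fell, so their fall and order of groups follow from the ranking and are no further evidence. Akr1c18 (5.24 and 4.92) and Speer4a (5.37 and 5.47) lay under the median gene level of 5.63 with PlGFCM. They met the limit of level through the groups where they were higher. Insig1 was at 10.1 and 10.2 with ConCM, 9.75 and 9.71 with PlGFCM, and 10.0 and 9.98 with IL6_ConCM, the same order of groups as Ms4a1. Of the other 7 genes, Cd79a had an r of -0.927 to Ms4a1 and -0.925 to Fcer2a, Pax5 of -0.828 and -0.873, and Ebf1 of -0.825 and -0.753. The r was -0.699 and -0.540 for Cd79b, -0.631 and -0.477 for Blk, -0.594 and -0.780 for Cr2, and 0.185 and 0.106 for Cd22. Cd79b ranked 963 and 876 of the 1168, so other genes had a lower r. The rest of the 7 fell outside the limits of level and range and have no rank. The ranking moved without PlGFCM replicate 2, with Insig1 at rank 11 and Fcer2a at rank 28 for Ms4a1, and Insig1 at rank 2 and Ms4a1 at rank 18 for Fcer2a.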

How the data were processed

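The authors deposited log2 levels, 1 for each probe set on each array. Per the submitters' processing notes they used Transcriptome Analysis Console. Neither its version nor background correction, normalization or genome build is stated: not given in the sources used here. That the scale is log2 follows from the range of the values, and nothing was normalized further. Of 41345 probe sets, 23521 had 1 gene symbol in the platform annotation, 1814 had several and were left out, and 16010 were unnamed here. The brightest probe set stood for each of 22180 genes, with no filter on low levels.

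Groups came from the treatment label. limma version 3.58.1 in R 4.3.3 (lmFit, eBayes with an intensity trend, 3 residual degrees of freedom) was fitted to all 6 arrays, and checked on simulated data. Named were the 9 members, per list the genes that passed or else the 3 with the smallest p in PlGFCM against ConCM, set markers, and the 5 genes most like Ms4a1 and Fcer2a; further genes of the lists were added for context after their values were seen. The members and lists were chosen with earlier results of these data known. Of 150 list genes 129 were measured, and those without a probe set of 1 symbol are not analysed here. Upstream sequences are RefSeq's.

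Alternatives were quantile normalization, median subtraction, filters at the median and 25th percentile, the mean of a gene's probe sets, each probe set tested on its own, a fit without the trend, a robust prior, only the arrays compared, array weights, a replicate block, an unadjusted p under 0.05 with 2-fold change, and each array left out. Leaving out PlGFCM or ConCM arrays for the lists, their genes and the likeness was added after the data were seen.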

Additional observations from a re-analysis of the deposited data

How the results depend on the processing

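Over 18 alternatives, Ms4a1 kept a negative change from ConCM to PlGFCM (-0.93 to -0.76) and passed in 11, and Fcer2a (-1.02 to -0.70) passed in 12. The filter at the median level, 1 of the alternatives in which Ms4a1 passed, keeps it through the groups where it is higher. Of the 9 genes, 0 passed in that comparison when every probe set was tested singly, without an intensity trend, or with an unadjusted p under 0.05 and 2-fold change, against 2 in the analysis reported. With 1 array left out, 0 to 2 passed. With a replicate block 2 passed, Ms4a1 with a limma adjusted p of 0.0330 and Fcer2a of 0.0172. Deviations of same-numbered arrays correlated at r = -0.04, 0.11 and 0.03, so the numbers were not taken to pair the arrays, which the labels do not settle. Fcer2a, Pax5 and Ebf1 did differ with 1 sign by number in all 3 groups, but the share of all genes that did so was not counted. Under the block Ms4a4b (limma adjusted p = 0.0550) and Clec7a (limma adjusted p = 0.0748) did not pass. Without an intensity trend, the PlGFCM calls of Jchain, Ms4a4b, Gzma and Clec7a and the IL6_ConCM call of Gzma were lost. Their limma adjusted p was then 0.127 to 0.308. Testing every probe set singly ended the same calls (limma adjusted p from 0.284 to 0.414). In the comparisons with IL6_ConCM, 0 of the 9 passed under any alternative. The score of Ms4a1 and Fcer2a against the other 7 ranged with 1 array left out from -1.25 to -0.95 for PlGFCM against ConCM, from -0.63 to -0.36 for IL6_ConCM against ConCM and from -0.75 to -0.45 for PlGFCM against IL6_ConCM.

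Signs turned only when 1 array was left out, for changes that had not passed. For IL6_ConCM against ConCM these ranged from -0.10 to 0.73 for Cr2, -0.051 to 0.13 for Pax5, -0.090 to 0.035 for Ebf1, -0.22 to 0.076 for Blk, -0.19 to 0.044 for Clec7a and -0.25 to 0.19 for Cd14. For PlGFCM against IL6_ConCM they ranged from -0.42 to 0.0059 for Ms4a4b and -0.094 to 0.17 for Ms4a4c. Cr2 has no value under the filter at the median. With 2 arrays a group, the spread of a single gene is little known and rests on the shared estimate.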
